A study of Oncorhynchus mykiss with 12 samples.

Results

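Genes of blood vessel cells were followed in dorsal skin of rainbow trout (Oncorhynchus mykiss), across the 6 RNA-Seq libraries of wild-type and yellow mutant fish. The set holds 29 genes that mark endothelial cells or the mural cells around them, and every gene copy was taken whose symbol in the expression table, ignoring case and a final a, b or l, was one of the 29. The rule found 70 of the 42290 entries of the table, 49 endothelial and 21 mural, and 28 of the 29 genes had a copy. No row carried the symbol emcn. Both genotypes came from F1 offspring of wild-type males and yellow mutant females. There were 3 RNA-Seq and 3 miRNA-Seq samples of each genotype, 12 samples in all. The labels give neither age nor sex nor treatment, and they do not say whether a sample was 1 fish or a pool, so p-values measure the spread between these samples only, which may be technical. In whole skin, fewer cells of a type and less RNA per cell cannot be told apart.

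Endothelial cells line blood and lymph vessels. They grow and remodel under VEGF, which acts through the kdr and flt receptors, and under angiopoietins, which act through tek. Pericytes and smooth muscle cells wrap the vessel wall, are recruited through the receptor pdgfrb, and contract through actin and its partner proteins. In fish skin the vessels run mainly in the dermis.

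Levels are FPKM, read fragments scaled by transcript length and library size, as deposited. Of the 70 copies, 62 were tested, with FPKM of at least 0.5 in at least 3 of the 6 libraries, and the highest value among the other 8 was 0.954. Those 8 were 3 des, 2 esam, 2 pecam1 and 1 rgs5 copies, and 1 of the pecam1 rows (gene 118936545) is described as a peroxidasin homolog. Means over all libraries ran from 0.644 to 148 FPKM among the tested copies, with a median of 5.70. Differences are yellow mutant minus wild-type on the log2(FPKM + 1) scale, which understates changes of low genes, from limma across all 27268 genes tested with Benjamini-Hochberg adjustment. Absolute depth is unknown. Relative to wild-type replicate 1, depth was 0.942 for wild-type replicate 2 and 0.902 for wild-type replicate 3, and for yellow mutant replicates 1, 2 and 3 it was 1.007, 0.582 and 0.81. The defining endothelial genes cdh5, kdr, tie1, egfl7 and pecam1 and the mural genes acta2, tagln, CNN1, pdgfrb and rgs5 were all present in every library. The trout genome was duplicated, so most genes have several copies. How reads shared between copies were counted is not given in the sources used here, so values of single copies are uncertain.

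Most vessel gene copies were somewhat lower in yellow mutant skin, and none passed the threshold. Of the 62 tested copies, 56 were lower and 6 higher, while 47.0% of all genes tested were lower and 53.0% higher. Their median log2 difference was -0.27, against 0.01 over all genes. At an adjusted p under 0.05, 0 copies were called in either direction (limma, Benjamini-Hochberg). Over all genes that threshold called 0.033% higher and 0.0% lower. At an unadjusted p under 0.05, 14 copies were lower and 1 higher, where 2.59% of all genes were lower and 3.41% higher. All yellow mutant libraries lay below all wild-type libraries for 10 copies, or 16.1%, against 4.92% of all genes, and above them for 1 copy, against 6.07%. The 10 were 4 of 45 endothelial copies, or 8.89%, and 6 of 17 mural copies, or 35.3%. The 14 copies lower at an unadjusted p under 0.05 were 7 endothelial, or 15.6%, and 7 mural, or 41.2%. The members share libraries and, between copies, possibly reads, and they were chosen with earlier results of these data known. These shares therefore describe the set and are not a test of it.

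**Figure D1:**
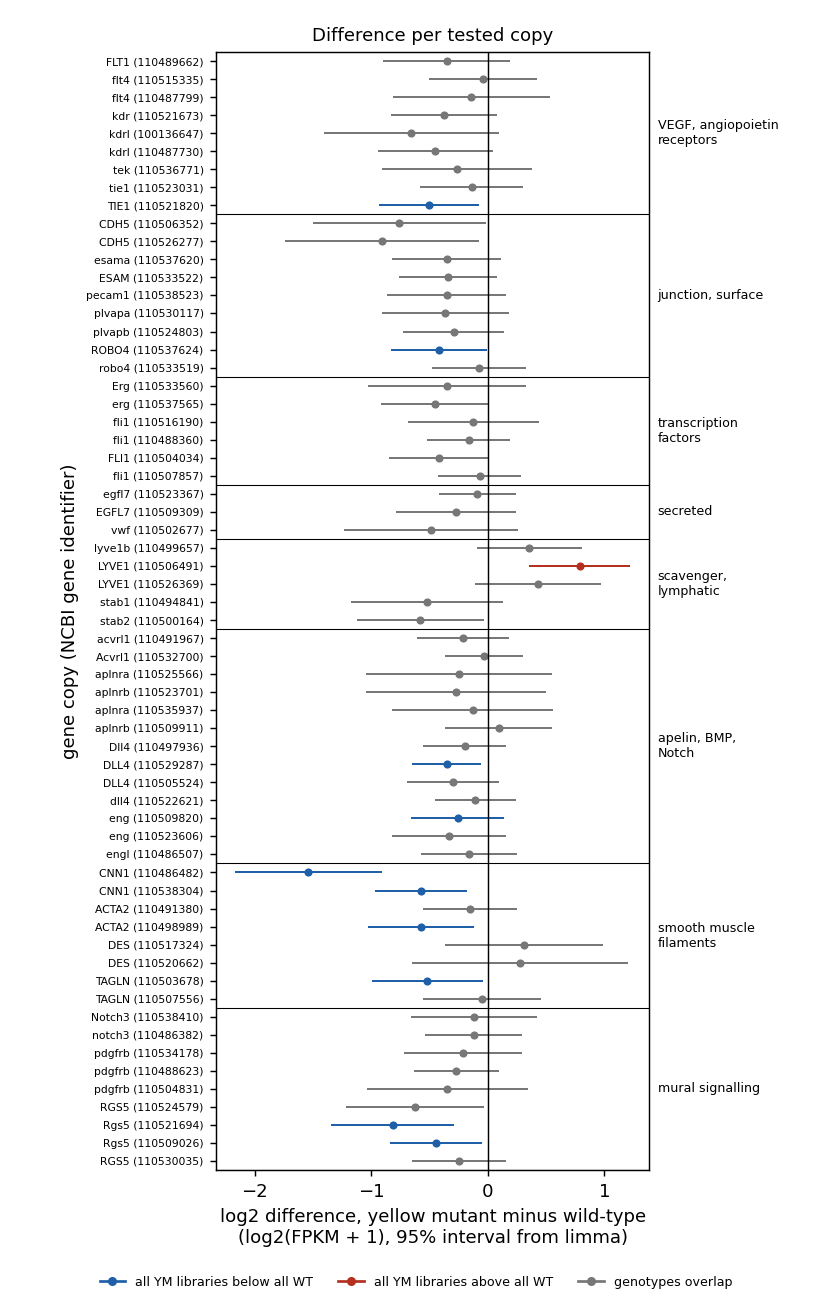
Log2 difference between yellow mutant and wild-type skin for each of the 62 tested copies (x axis, log2(FPKM + 1) scale; bars are 95% intervals from limma, 3 libraries per genotype), grouped by role on the y axis. Blue marks the 10 copies with every yellow mutant library below every wild-type library and red the 1 copy with every one above; 56 points lie left of 0.

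The libraries did not split cleanly by genotype. For each library, the median over the 62 copies of the deviation from the copy's own mean was 0.14 for wild-type replicate 1, 0.365 for replicate 2 and -0.0417 for replicate 3, on the log2(FPKM + 1) scale. For the yellow mutant it was 0.125 for replicate 1, -0.285 for replicate 2 and -0.258 for replicate 3. Yellow mutant replicate 1 thus stood above wild-type replicate 3, and the genotypes overlapped. Wild-type replicate 2 was the highest library for 35 of 62 copies, or 56.5%, against 13.1% of all genes. The lowest library was yellow mutant replicate 2 for 28 copies and yellow mutant replicate 3 for 21, or 45.2% and 33.9%, against 21.0% and 17.7% of all genes. The 2 libraries lowest for these copies were also the 2 with the least depth. With log2 relative depth as a covariate, 43 of 62 copies were lower, or 69.4%, against 47.5% of all genes. The median was then -0.17 for endothelial and -0.185 for mural copies. Depth was partly tied to genotype in these 6 libraries, so this fit cannot separate depth from genotype. Without wild-type replicate 2, the endothelial median was -0.16, and 52 of 62 copies were lower, or 83.9%, against 47.1% of all genes. In that fit 3 copies were lower at an unadjusted p under 0.05. Leaving out each library in turn gave 3 to 22 copies lower at that p. The fewest came without wild-type replicate 2 and the most without yellow mutant replicate 1. The share of all genes at that p was not computed for these fits, so the counts have no background.

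**Figure D2:**
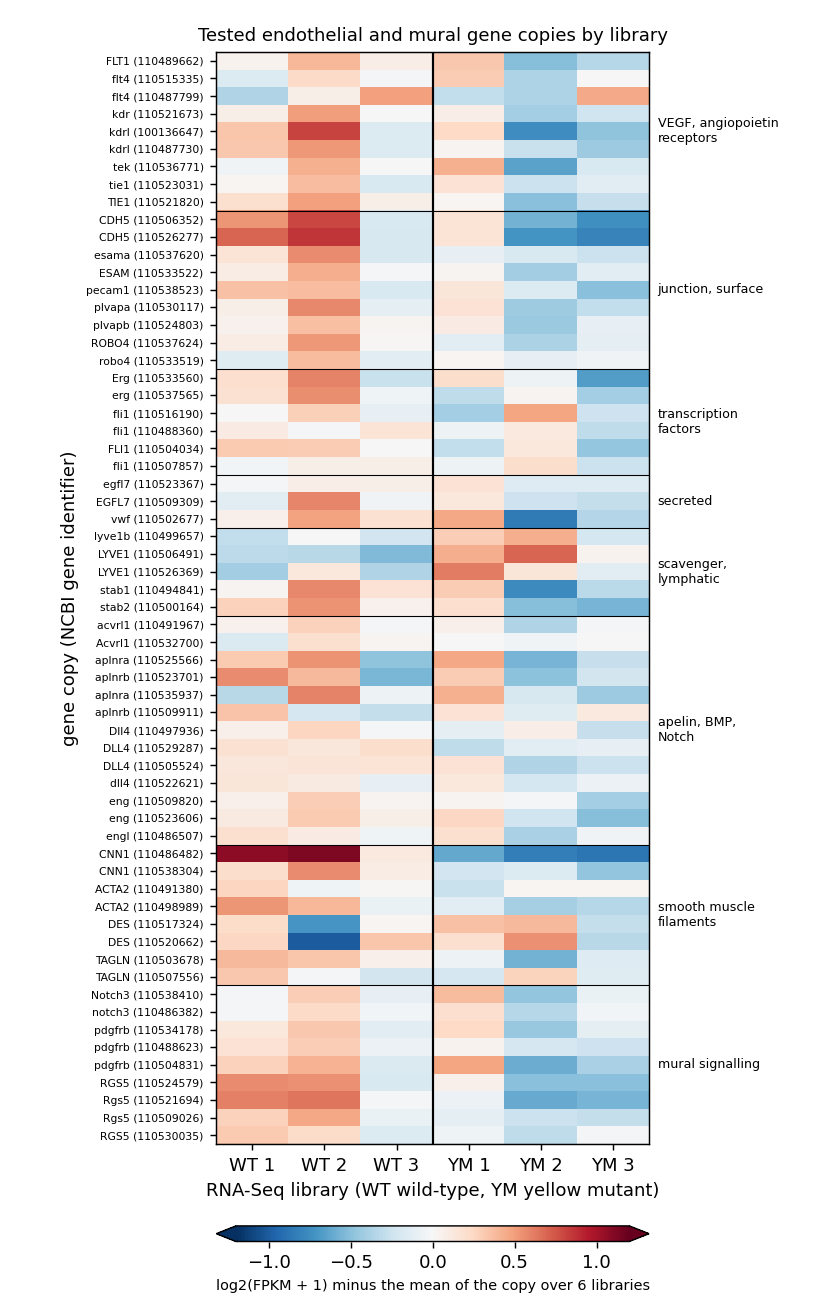
Each of the 62 tested copies (rows, grouped by role) in each of the 6 RNA-Seq libraries (columns), coloured by log2(FPKM + 1) minus the copy's mean over the 6 libraries; red is high, blue low. Wild-type replicate 2 is the reddest column, yellow mutant replicates 2 and 3 the bluest, and yellow mutant replicate 1 lies among the wild-type libraries for most endothelial rows.

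Among the receptors, kdr and kdrl, the main VEGF receptors of blood endothelium, were lower in mean but overlapped between genotypes. The rows of kdrl are described as kdr-like and were counted with kdr because the rule ignores a final l. The kdr copy (gene 110521673) was at 9.19, 12.8 and 8.70 FPKM in the wild-type libraries and 9.31, 6.35 and 7.26 in the yellow mutant ones, here and below in the order of replicates 1 to 3. The kdrl copies had log2 differences of -0.66 (gene 100136647) and -0.45 (gene 110487730). FLT1 (gene 110489662), a decoy receptor for VEGF, was low, at 1.09, 1.66 and 1.14 FPKM in the wild-type libraries and 1.54, 0.418 and 0.589 in the yellow mutant ones. Yellow mutant replicate 1 sat in the wild-type range there and the other two lay below it. flt4, the VEGF-C receptor of lymphatic endothelium, hardly differed in mean. Its more abundant copy (gene 110515335) was at 2.40, 3.48 and 2.79 FPKM in the wild-type libraries and 3.71, 1.95 and 2.82 in the yellow mutant ones, with a log2 difference of -0.04 and a 95% interval from -0.50 to 0.42.

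The Tie receptors, which steady the vessel wall, were lower in mean in each copy, and whether the copies differ was not tested. TIE1 (gene 110521820) was at 6.54, 8.32 and 5.95 FPKM in the wild-type libraries and 5.74, 3.67 and 4.48 in the yellow mutant ones. Every yellow mutant library was below every wild-type one, at a log2 difference of -0.50, SE 0.18 (adjusted p = 0.766, limma with Benjamini-Hochberg). The other copy, tie1 (gene 110523031), was at 7.06, 9.21 and 5.96 FPKM in the wild-type libraries and 7.95, 5.64 and 6.21 in the yellow mutant ones, so its genotypes overlapped. Its log2 difference was -0.14, SE 0.19. tek (gene 110536771), the angiopoietin receptor, was at 8.25, 11.8 and 8.60 FPKM in the wild-type libraries and 11.8, 5.13 and 7.42 in the yellow mutant ones. The lowest library for tek was yellow mutant replicate 2. Its 2 highest, yellow mutant replicate 1 and wild-type replicate 2, were nearly equal, at 11.843 and 11.837 FPKM.

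The junction genes held the largest differences among the lower endothelial copies. Both copies of CDH5, VE-cadherin, which joins endothelial cells to each other, followed the same course over the libraries. CDH5 (gene 110526277) was at 9.42, 10.7 and 4.62 FPKM in the wild-type libraries and 6.22, 2.91 and 2.68 in the yellow mutant ones, with a log2 difference of -0.91, SE 0.35 (adjusted p = 0.800, limma with Benjamini-Hochberg). CDH5 (gene 110506352) was at 10.2, 12.5 and 5.82 FPKM in the wild-type libraries and 7.67, 4.22 and 3.67 in the yellow mutant ones, with a log2 difference of -0.76, SE 0.31. In both copies wild-type replicate 3 lay below yellow mutant replicate 1, so the genotypes overlapped. All 9 tested copies of this role were lower, and all 9 were highest in wild-type replicate 2.

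esama (gene 110537620), an adhesion molecule of endothelial junctions, was at 2.04, 3.01 and 1.38 FPKM in the wild-type libraries and 1.55, 1.40 and 1.27 in the yellow mutant ones. pecam1 (gene 110538523), a further junction protein, was at 7.33, 7.43 and 4.76 FPKM in the wild-type libraries and 6.21, 4.82 and 3.61 in the yellow mutant ones. plvapa (gene 110530117), which forms the diaphragms of endothelial pores, was at 11.5, 16.8 and 10.05 FPKM in the wild-type libraries and 12.4, 7.82 and 8.70 in the yellow mutant ones. In each of these 3 genes the genotypes overlapped by 1 or more libraries. ROBO4 (gene 110537624), an endothelial guidance receptor, did not overlap, with 2.13, 3.23 and 1.98 FPKM in the wild-type libraries and 1.68, 1.27 and 1.73 in the yellow mutant ones. The table describes that copy as roundabout homolog 1 although its symbol is ROBO4. In the RefSeq gene order it lies beside esama with 2 protein-coding genes between, as the other robo4 copy (gene 110533519) lies beside ESAM (gene 110533522).

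The ETS factors erg and fli1, which keep endothelial cells in their fate, were lower in all 6 tested copies by small amounts. Erg (gene 110533560) was at 16.8, 22.2 and 11.8 FPKM in the wild-type libraries and 16.8, 13.7 and 8.69 in the yellow mutant ones. erg (gene 110537565) was at 6.07, 8.18 and 5.01 FPKM in the wild-type libraries and 4.07, 5.37 and 3.70 in the yellow mutant ones, with a log2 difference of -0.45, SE 0.19 (adjusted p = 0.830, limma with Benjamini-Hochberg). The most abundant fli1 copy (gene 110516190) was at 8.04, 9.96 and 7.42 FPKM in the wild-type libraries and 5.81, 11.5 and 6.56 in the yellow mutant ones, so that yellow mutant replicate 2, low for most vessel genes, was its highest library. Each of the 2 erg copies lay directly beside an ETS2 copy in the RefSeq gene order, and each of the 4 fli1 copies beside an ETS1 copy.

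Secreted proteins of the vessel wall overlapped throughout. vwf (gene 110502677), von Willebrand factor, which tethers thrombocytes, was at 11.8, 16.1 and 12.8 FPKM in the wild-type libraries and 15.8, 5.79 and 8.58 in the yellow mutant ones. egfl7 (gene 110523367), a matrix protein that endothelial cells deposit, was the steadiest, at 5.68, 6.12 and 6.05 FPKM in the wild-type libraries and 6.57, 5.05 and 5.06 in the yellow mutant ones. Its log2 difference was -0.09, with a 95% interval from -0.41 to 0.23.

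The scavenger and lymphatic receptors went both ways. LYVE1, a hyaluronan receptor that marks lymphatic endothelium and some macrophages, was higher in yellow mutant skin in all 3 copies, and these were 3 of the 6 copies in the set that were higher at all. LYVE1 (gene 110506491) was at 2.90, 2.86 and 2.36 FPKM in the wild-type libraries and 5.57, 6.91 and 4.01 in the yellow mutant ones. It was the 1 copy of the set with every yellow mutant library above every wild-type library, 2.03-fold in means, at a log2 difference of 0.79, SE 0.18 (adjusted p = 0.471, limma with Benjamini-Hochberg). lyve1b (gene 110499657) was at 3.31, 4.28 and 3.51 FPKM in the wild-type libraries and 5.52, 6.18 and 3.58 in the yellow mutant ones, with yellow mutant replicate 3 inside the wild-type range. LYVE1 (gene 110526369) had a log2 difference of 0.43.

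The stabilins, which clear hyaluronan and other waste from blood, were lower in mean. stab2 (gene 110500164) was at 3.29, 4.16 and 2.68 FPKM in the wild-type libraries and 3.07, 1.49 and 1.41 in the yellow mutant ones, with a log2 difference of -0.58, SE 0.23 (adjusted p = 0.811, limma with Benjamini-Hochberg). stab1 (gene 110494841), also made by macrophages, was at 5.36, 8.29 and 6.02 FPKM in the wild-type libraries and 6.70, 2.66 and 3.97 in the yellow mutant ones. Summed over its 9 copies, prox1, the master factor of lymphatic endothelium, was at 4.93, 5.18 and 5.51 FPKM in the wild-type libraries and 6.53, 5.56 and 4.67 in the yellow mutant ones, so it overlapped, as flt4 did. In the macrophage list, 14 of 15 copies were tested, 9 were higher and 5 lower, and the summed level was 196.7 to 211.7 FPKM in wild-type and 189.5 to 225.7 FPKM in yellow mutant skin. Of its defining genes, csf1r, mpeg1 and cd68 had no row by these symbols, and marco was above 0 in every library. The part of macrophages in the LYVE1 and stab1 values was not tested.

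Of the signalling genes, dll4, the Notch ligand of sprouting tips and arteries, was lower in all 4 copies, of which 3 overlapped between genotypes. The most abundant, Dll4 (gene 110497936), was at 2.49, 3.003 and 2.29 FPKM in the wild-type libraries and 2.11, 2.54 and 1.76 in the yellow mutant ones, with a log2 difference of -0.20. DLL4 (gene 110529287) was at 2.71, 2.59 and 2.78 FPKM in the wild-type libraries and 1.64, 1.996 and 2.04 in the yellow mutant ones, without overlap, at a log2 difference of -0.35, SE 0.13 (adjusted p = 0.762, limma with Benjamini-Hochberg). Summed over the 4 copies, dll4 was at 7.55 ± 0.396 FPKM in wild-type and 5.74 ± 0.411 in the yellow mutant (SD, n = 3 each), and the summed level did not overlap either. eng (gene 110509820), endoglin, a co-receptor for BMP9, was at 12.8, 15.3 and 12.6 FPKM in the wild-type libraries and 12.6, 12.1 and 9.03 in the yellow mutant ones. The gap between its genotypes was small, since yellow mutant replicate 1 almost met wild-type replicate 3. acvrl1 (gene 110491967), the BMP9 receptor, was at 12.5, 14.7 and 11.8 FPKM in the wild-type libraries and 12.6, 9.09 and 11.8 in the yellow mutant ones. aplnr, the apelin receptor, was the 1 gene of the 22 with several tested copies whose copies went both ways. Its most abundant copy, aplnra (gene 110525566), was at 6.97, 8.29 and 3.59 FPKM in the wild-type libraries and 7.80, 3.36 and 4.27 in the yellow mutant ones.

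The mural contractile genes were lower in mean for every gene but des. Of their 8 tested copies, 4 had every yellow mutant library below every wild-type one, or 50.0%, against 4.92% of all genes. Calponin-1, an actin-binding protein of smooth muscle, had the largest difference of the set. CNN1 (gene 110486482) was at 13.2, 13.6 and 6.30 FPKM in the wild-type libraries and 3.41, 2.79 and 2.71 in the yellow mutant ones. Each wild-type library was above all yellow mutant libraries, though wild-type replicate 3 was far below the other two, with a log2 difference of -1.54, SE 0.27 (adjusted p = 0.235, limma with Benjamini-Hochberg). In the authors' deposited table the same copy has a log2 fold change of -1.90 with an FDR of 2.03e-06, from a test that is not stated. That fold change is a ratio of mean FPKM without the added 1, so it is not on the scale used here. The next lowest of the authors' FDR values in the set was 0.0891, for Rgs5 (gene 110521694). The share of all genes at such an FDR was not computed. CNN1 (gene 110538304) was at 6.22, 8.23 and 5.64 FPKM in the wild-type libraries and 4.34, 4.59 and 3.499 in the yellow mutant ones, with a log2 difference of -0.57, SE 0.17 (adjusted p = 0.657, limma with Benjamini-Hochberg).

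In these 6 libraries the ratio of the CNN1 copies did not overlap between genotypes. The ratio of gene 110486482 to gene 110538304 within a library was 2.13, 1.66 and 1.12 in wild-type and 0.785, 0.607 and 0.774 in yellow mutant skin. The ratio was 1.63 ± 0.505 against 0.722 ± 0.09998 (SD, n = 3 each), with an exact two-sided permutation p of 0.1, the smallest that 3 libraries against 3 can give. This was 1 of 9 copy ratios examined in 6 genes, of which 3 had that smallest p. Gene 110486482 was already known to have the largest difference of the set. The ratio therefore partly repeats that difference and is not separate support for it. How reads shared between the copies were counted is not known, which makes such ratios uncertain.

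Smooth muscle actin and transgelin, an actin cross-linker, each had 1 copy that was lower without overlap and 1 that was nearly level. ACTA2 (gene 110498989) was at 19.7, 17.9 and 12.6 FPKM in the wild-type libraries and 12.2, 9.90 and 10.3 in the yellow mutant ones, with a log2 difference of -0.57, SE 0.19 (adjusted p = 0.748, limma with Benjamini-Hochberg). The more abundant ACTA2 (gene 110491380) was at 32.7, 26.2 and 27.4 FPKM in the wild-type libraries and 22.4, 27.5 and 27.7 in the yellow mutant ones, and overlapped. TAGLN (gene 110503678), the most abundant copy of the set, was at 190, 183 and 151 FPKM in the wild-type libraries and 139, 97.4 and 130 in the yellow mutant ones. Its log2 difference was -0.52, SE 0.20 (adjusted p = 0.798, limma with Benjamini-Hochberg). TAGLN (gene 110507556) had a log2 difference of -0.05 with a 95% interval from -0.55 to 0.45. In both pairs the within-library ratio of the copies overlapped between genotypes (exact two-sided permutation p = 0.2 for both). The smallest p that 3 libraries against 3 can give is 0.1, so this cannot show that the copies changed alike.

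**Figure D3:**
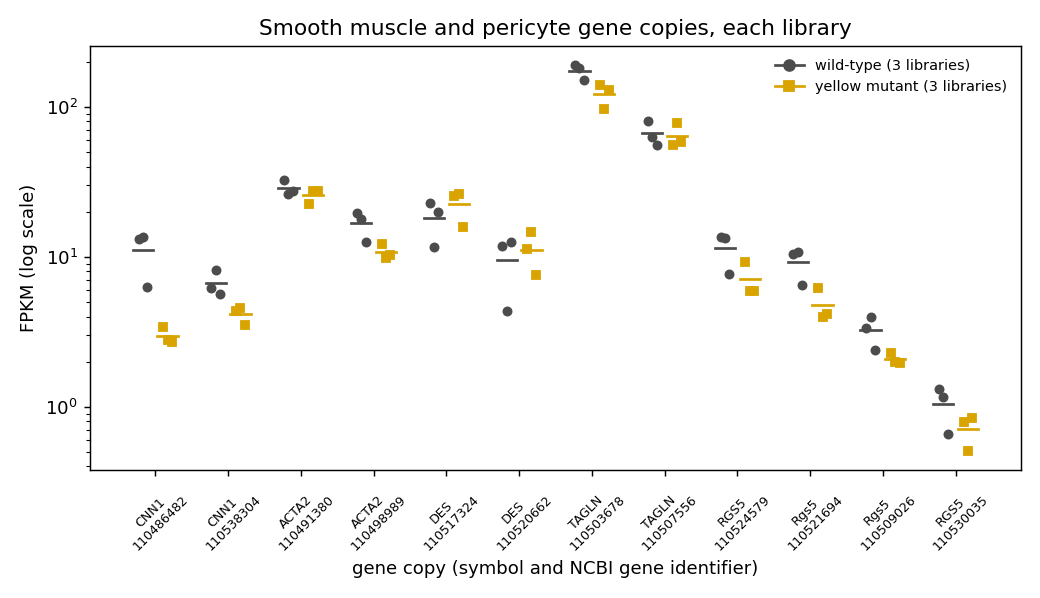
FPKM (y axis, log scale) of the tested CNN1, ACTA2, DES, TAGLN and RGS5 copies in each library, with grey circles for the 3 wild-type and yellow squares for the 3 yellow mutant libraries and a line at each mean. The CNN1 copies, 1 ACTA2 copy, 1 TAGLN copy and 2 Rgs5 copies show no overlap, and the DES copies are spread within both genotypes.

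Desmin, an intermediate filament of smooth, skeletal and heart muscle, behaved otherwise. DES (gene 110517324) was at 23.0, 11.7 and 19.9 FPKM in the wild-type libraries and 25.4, 26.1 and 15.9 in the yellow mutant ones, lowest in wild-type replicate 2 and highest in yellow mutant replicate 2. Skeletal muscle markers had the same extremes, with a summed level of 5081, 2096 and 5608 FPKM in the wild-type libraries and 4395, 7268 and 3052 in the yellow mutant ones over 61 copies, of which 54 were tested, 41 higher and 13 lower. The part of skeletal muscle in the DES values was not tested. The defining gene acta1 had no row by that symbol, and the other 5 were above 0 in every library. Another row with the symbol DES (gene 110489980) is described as glial fibrillary acidic protein and was at 0 in all 6 libraries.

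Among the genes through which mural cells are controlled, rgs5 held the larger differences. RGS5, an inhibitor of G-protein signals that marks pericytes, was lower in all 4 tested copies. Rgs5 (gene 110521694) was at 10.5, 10.8 and 6.49 FPKM in the wild-type libraries and 6.21, 3.98 and 4.13 in the yellow mutant ones, with a log2 difference of -0.82, SE 0.23 (adjusted p = 0.612, limma with Benjamini-Hochberg). Rgs5 (gene 110509026) was at 3.36, 3.96 and 2.39 FPKM in the wild-type libraries and 2.3, 1.998 and 1.95 in the yellow mutant ones, again without overlap. RGS5 (gene 110524579), the most abundant copy, was at 13.5, 13.4 and 7.65 FPKM in the wild-type libraries and 9.28, 5.96 and 5.95 in the yellow mutant ones, where wild-type replicate 3 lay below yellow mutant replicate 1.

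Beside Rgs5 (gene 110521694), with no protein-coding gene between in the RefSeq order, lies RGS4 (gene 110521693), a related regulator. It was at 1.64, 1.62 and 1.53 FPKM in the wild-type libraries and 0.697, 0.858 and 0.761 in the yellow mutant ones. These low levels did not overlap (adjusted p = 0.440, limma with Benjamini-Hochberg), and RGS4 was named with its values known. pdgfrb, the receptor that draws pericytes to vessels, was lower in all 3 copies, and all 3 overlapped. Its most abundant copy (gene 110534178) was at 16.3, 18.7 and 13.4 FPKM in the wild-type libraries and 17.7, 10.5 and 13.7 in the yellow mutant ones. Notch3 (gene 110538410), a Notch receptor of arterial smooth muscle, was at 10.6, 13.4 and 9.98 FPKM in the wild-type libraries and 14.2, 7.46 and 10.1 in the yellow mutant ones, with a log2 difference of -0.12.

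Across the set, copies of a gene usually differed in the same direction. Of the 22 genes with several tested copies, 19 had all copies lower, 2 (lyve1 and des) all copies higher, and 1 (aplnr) copies both ways. This count takes kdrl with kdr and engl with eng. Since 56 of the 62 tested copies were lower, agreement between copies largely follows from that share. How reads shared between copies were counted is not known either. The 6 genes with a single tested copy were all lower.

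The ligands of the endothelial receptors were examined as a separate list of VEGF and angiopoietin ligands and co-receptors. Of its 31 tested copies, 25 were lower and 6 higher, with a median of -0.13, and 0 were called (limma with Benjamini-Hochberg). At an unadjusted p under 0.05, 8 were lower, or 25.8%, against 2.59% of all genes. Every yellow mutant library was below every wild-type one for 10 copies, or 32.3%, against 4.92% of all genes. The reverse held for 1 copy, against 6.07% of all genes. ANGPT1 (gene 110507394), the ligand of tek that mural cells release, was at 2.69, 4.29 and 2.48 FPKM in the wild-type libraries and 1.41, 0.733 and 1.098 in the yellow mutant ones, with a log2 difference of -0.99, SE 0.20 (adjusted p = 0.349, limma with Benjamini-Hochberg). vegfab (gene 110522314), a ligand of kdr and flt1, was at 3.37, 3.69 and 3.96 FPKM in the wild-type libraries and 1.79, 2.06 and 2.51 in the yellow mutant ones. In both ligands every yellow mutant library was below every wild-type one. These 2 copies were named for the smallest p of the list, so that is not separate support. Of the other tested angpt1 copies, gene 110507402 did not overlap (-0.48), while genes 110487626 (-0.19) and 110496115 (-0.06) did. The vegfaa genes 110490183 (-0.50) and 110529696 (-0.35) did not overlap, while VEGFA (gene 110504679, -0.05) did. The values in brackets are log2 differences.

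Other endothelial surface and junction genes resembled the set, with 73 of 90 tested copies lower, a median of -0.25, and 0 called. Of these 90, 14 were lower at an unadjusted p under 0.05, or 15.6%, and 0 higher. Over all genes 2.59% were lower and 3.41% higher at that p. CLDN5 (gene 110509625), a tight junction protein of endothelium, led them at 6.81, 6.44 and 3.29 FPKM in the wild-type libraries and 2.12, 1.37 and 2.23 in the yellow mutant ones (adjusted p = 0.440, limma with Benjamini-Hochberg). PTPRB (gene 110499409), the phosphatase that restrains tek, was at 3.97, 6.22 and 4.71 FPKM in the wild-type libraries and 3.66, 2.55 and 2.86 in the yellow mutant ones. Endothelial transcription factors had 27 of 44 copies lower, with a median of -0.12. In that list sox7 (gene 110522657), a partner of sox18 in vessel formation, was at 2.19, 2.85 and 1.31 FPKM in the wild-type libraries and 0.885, 1.24 and 0.926 in the yellow mutant ones. gata2 (gene 110527950), of endothelial and blood cells, was the reverse, at 2.47, 2.82 and 1.89 FPKM in the wild-type libraries and 3.70, 3.74 and 3.42 in the yellow mutant ones.

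Further smooth muscle and pericyte genes were nearer to level in their median, -0.06, with 47 of 75 tested copies lower. Of these 75, 11 were lower at an unadjusted p under 0.05, or 14.7%, and 1 was higher. Over all genes 2.59% were lower and 3.41% higher at that p. Every yellow mutant library was below every wild-type one for 7 copies, or 9.33%, against 4.92% of all genes. For 2 copies every one was above, against 6.07% of all genes. Ndufa4l2 (gene 110492353), a pericyte marker in mammals, was at 3.69, 4.06 and 3.95 FPKM in the wild-type libraries and 2.82, 2.46 and 1.44 in the yellow mutant ones. The Notch list had 15 of 25 copies lower (median -0.07) and the BMP and TGF-beta list 18 of 32 (median -0.02). Their leading genes were nrarpa (gene 110536980), a Notch feedback gene, with a log2 difference of -0.34, notch1 (gene 100190917), a Notch receptor, with -0.25, tgfbr2l (gene 110520304), a TGF-beta receptor gene, with -0.35, and SMAD7 (gene 101268922), an inhibitor of TGF-beta signals, with -0.30. apln (gene 110505164), apelin, was at 4.40, 4.24 and 2.96 FPKM in the wild-type libraries and 3.64, 2.26 and 2.06 in the yellow mutant ones. The hypoxia and shear list was level, with 14 of 26 copies lower and a median of -0.01, and in it HIF1A (gene 110507593), the hypoxia factor, was at 5.14 ± 0.404 and 6.73 ± 0.428 FPKM and BNIP3 (gene 110531588), a mitophagy protein, at 1.68 ± 0.248 and 3.38 ± 1.75 FPKM in wild-type and yellow mutant skin (SD, n = 3 each). Across these lists 0 copies passed over all genes.

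Markers of other cell types also differed between the libraries. The dermal fibroblast list, whose cells share the dermis with the vessels, had 33 of 45 tested copies lower (median -0.19), with COL6A3 (gene 110519978) at a log2 difference of -0.77 and COL6A1 (gene 110535491) at 0.38. Its summed level was 38690 to 48290 FPKM in wild-type and 33670 to 42840 FPKM in yellow mutant skin. The keratinocyte list, of the epidermis, had 24 of 25 copies higher (median 0.24). Its summed level was 1082 to 1595 FPKM in wild-type and 1577 to 2129 FPKM in yellow mutant skin. It was led by an assembled CDH1 transcript at a log2 difference of 1.93 and GRHL1 (gene 110498107) at 0.45. Red cell markers had 14 of 16 copies lower (median -0.29) and summed to 204.6 to 547 FPKM in wild-type and 283 to 362 FPKM in yellow mutant skin. In that list, the lead genes by p were higher, tfr1a (gene 110509090) at a log2 difference of 0.42 and rhag (gene 110529405) at 0.79. Thrombocyte markers had 6 of 9 tested copies lower and 3 higher, with a median of -0.05 and a range from -0.63 to 0.70. Their summed level was 75.8 to 89.4 FPKM in wild-type and 66.5 to 74.6 FPKM in yellow mutant skin, and the defining gene itga2b was at 0.319, 0.295 and 0.246 FPKM in the wild-type libraries and 0.412, 0.31 and 0.428 in the yellow mutant ones. The lead genes by p were THBS1 (gene 110497949) at a log2 difference of -0.63 and f5 (gene 110501366) at -0.52. Macrophage markers were led by CYBB (gene 118936247) at a log2 difference of 0.44 and c1qa (gene 110510310) at -0.41. Skeletal muscle markers were led by NEB (gene 110520260) at a log2 difference of 0.57 and Tnni2 (gene 110526837) at 1.11. No defining marker with a row was at 0 in these lists, while epb42, mpl and epcam had no row by that symbol. The share of dermis, blood and epidermis in each sample was not measured, and its part in the vessel gene values was not tested.

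**Figure D4:**
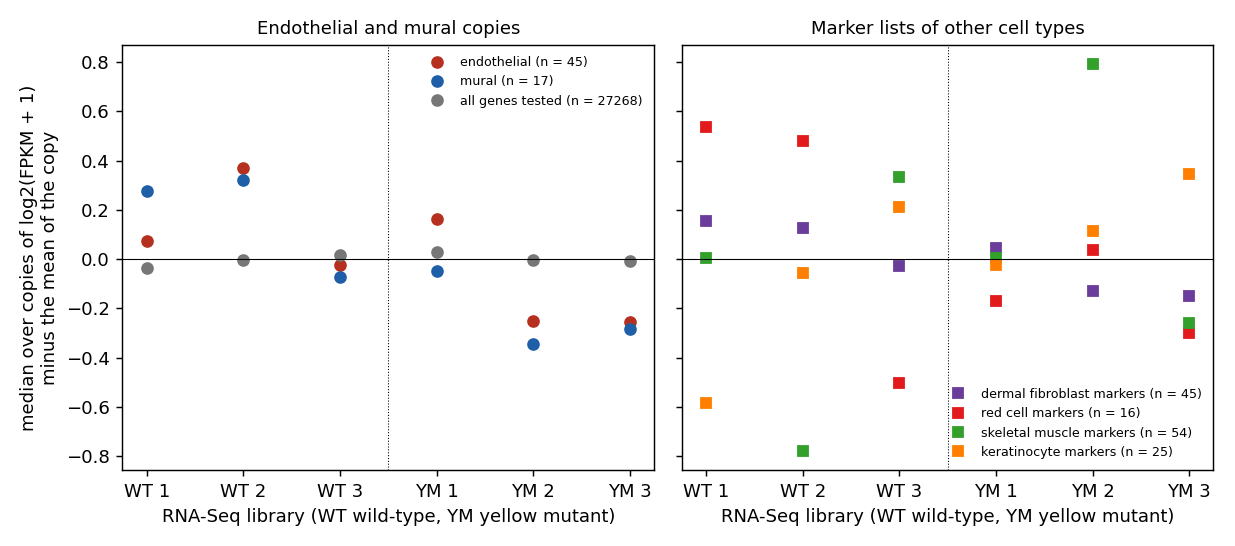
For each of the 6 RNA-Seq libraries (x axis), the median over the copies of a list of log2(FPKM + 1) minus the copy's mean (y axis), for endothelial copies, mural copies and all genes (left) and for marker lists of other cell types (right). Endothelial copies lie at 0.37 in wild-type replicate 2 and at -0.25 and -0.26 in yellow mutant replicates 2 and 3, and keratinocyte markers have their lowest value, -0.59, in wild-type replicate 1.

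The miRNA libraries, also of dorsal skin, held miRNAs that mark vessel cells in other animals. Which cells made them here was not tested. In mammals and zebrafish miR-126 is made from an intron of egfl7 and is an endothelial miRNA, and miR-143 and miR-145 are made together in smooth muscle. The sequences below are the entries of these families as deposited, 5′ to 3′, shown because they identify the entries whose levels follow. Capitals mark the seed, bases 2 to 8, through which a miRNA pairs with its targets.
miR-126-y: tCGTACCGtgagtaataatgca
miR-126-x: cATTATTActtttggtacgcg
miR-143-y: tGAGATGAagcactgtagctct
miR-143-x: gGTGCAGTgctgcatctctgg
miR-145-x: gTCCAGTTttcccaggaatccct
miR-145-y: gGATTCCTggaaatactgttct
The 6 seeds differ from each other, and each is carried by 1 of the 1279 entries of the table. The endings x and y are the file's own and their meaning is not stated.

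The vessel miRNAs were abundant and overlapped between genotypes in all 6 entries, where 2.89% of the entries tested had all yellow mutant samples below all wild-type ones and 7.32% above. By mean level miR-126-y ranked 16 and miR-143-y 18 among the 1279 entries. miR-126-y was at 10645, 11638 and 12279 RPM (reads scaled to library size) in wild-type samples 1 to 3 and at 12228, 12352 and 9450 in yellow mutant samples 1 to 3. Its log2 difference was -0.03, with a 95% interval from -0.49 to 0.43 (limma on log2(RPM + 1), 519 entries tested). The more abundant egfl7 copy was at -0.09 and the other, EGFL7 (gene 110509309), at -0.27. Which copy the miRNA comes from was not tested. miR-126-x was at 208, 310 and 330 RPM in the wild-type libraries and 298, 199.7 and 286 in the yellow mutant ones. miR-143-y was at 6672, 7341 and 10516 RPM in the wild-type libraries and 9414, 6520 and 7873 in the yellow mutant ones, with a log2 difference of -0.03 and a 95% interval from -0.58 to 0.52. miR-143-x had a log2 difference of -0.16.

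miR-145 was the lower of the smooth muscle families in mean. miR-145-y was at 523, 581 and 646 RPM in the wild-type libraries and 449, 644 and 322 in the yellow mutant ones, and miR-145-x at 405, 313 and 438 RPM in the wild-type libraries and 278, 434 and 259.7 in the yellow mutant ones. Their log2 differences were -0.36 and -0.28, and both overlapped (adjusted p = 0.837 and 0.906, limma with Benjamini-Hochberg). Over all miRNA entries tested, 0.0% were called in either direction, with 12 lower and 31 higher at an unadjusted p under 0.05, or 2.31% and 5.97%, and 37.8% were lower. The labels do not say whether RNA-Seq and miRNA-Seq samples of the same number come from the same fish. Markers of other tissues stood as follows. The striated muscle entries miR-206-y, miR-1-z and miR-133-z had log2 differences of 0.43, 0.40 and 0.42 and were highest in yellow mutant replicate 2, the highest sample for 25.8% of entries. The red cell entries miR-451-x and miR-144-y had log2 differences of -0.30 and 0.07 and were also highest in yellow mutant replicate 2.

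**Figure D5:**
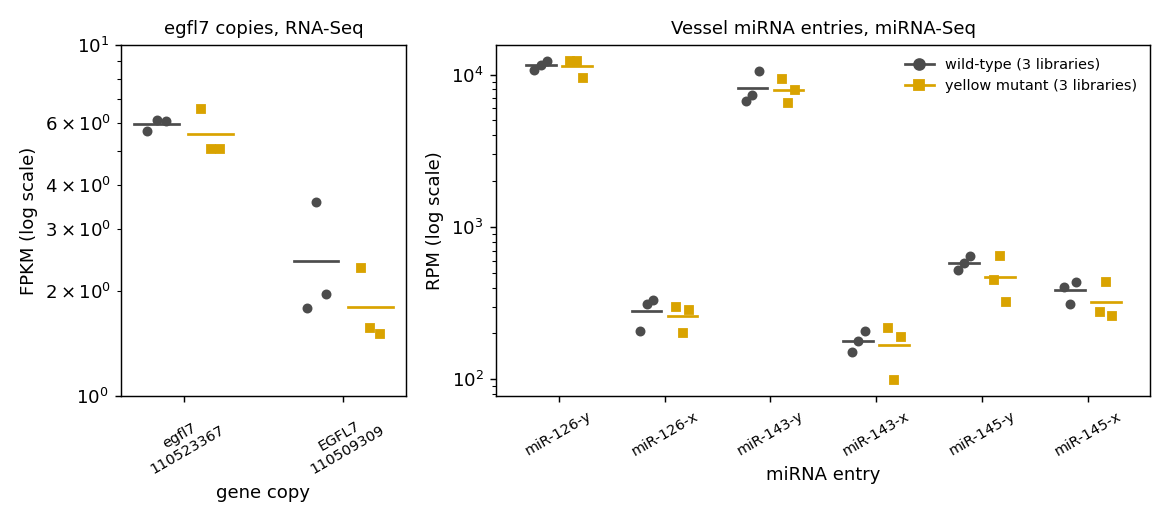
Levels of the 2 egfl7 copies (left, FPKM, log scale) and of the 6 entries of miR-126, miR-143 and miR-145 (right, RPM, log scale) in each library, with grey circles for 3 wild-type and yellow squares for 3 yellow mutant libraries and a line at each mean. The genotypes overlap in all 8 columns of points, and miR-126-y lies between 9450 and 12352 RPM in all 6 libraries.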

How the data were processed

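Dorsal skin was profiled by RNA-Seq and miRNA-Seq, with 3 samples per genotype and assay. Per the file headers, the deposited RNA-Seq table holds FPKM values of 6 libraries and the authors' log2 fold change and FDR (an adjusted p-value, test not stated). The authors' miRNA table is headed TPM, and its deposited values were read as RPM, since they are not scaled by length. Entries without reads, written as 0.01 by the authors, were set to 0. The file's log2 fold change and p-value for miRNA, as deposited, were not used. Tools named, per the submitters' processing notes, include TopHat2 2.1.1 and Bowtie2 2.2.8. Which genome build and which counter the authors used is not given in the sources used here. RefSeq names and gene order are from assembly USDA_OmykA_1.1. Its table matched all 70 copies, and 49 have only a LOC name there.

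Genes with FPKM of at least 0.5, and miRNAs with RPM of at least 1, in at least 3 of 6 libraries were tested with limma 3.58.1 in R 4.3.3 on log2(value + 1), two-sided, with only genotype in the model, robust eBayes with a mean trend, and Benjamini-Hochberg at 0.05. The procedure was tested on simulated data in which each gene was drawn independently, so shifts shared by the genes of a library were not covered. Relative depth was the mode of ratios of values between 0.02 and 0.3 FPKM. The number of reads limits the precision of low values. Members, lists and tests were chosen with earlier results of these data known. Values per library were given for copies with an unadjusted p under 0.05 and for the most abundant copy of each gene. The genes with the 2 smallest p of each of 14 further lists were also named. Some of these were given per library, and the others by their difference or their mean and SD. The remaining genes named were chosen after their values were seen. nebl was kept out of the skeletal muscle list.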

Additional observations from a re-analysis of the deposited data

How the results depend on the processing

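No vessel gene copy was called over all genes in either direction under any alternative run. Over all genes 9 were called higher and 0 lower. The count of higher calls was 0 with relative depth as a covariate and 0 to 10 when 1 library was left out. It was 1 without wild-type replicate 2 and 0 without each of wild-type replicates 1 and 3 and yellow mutant replicate 3. The count of lower calls was 1 with an FPKM filter of 5, 1 without robust or trended eBayes and 1 under median-of-ratios scaling, and 0 to 4 when 1 library was left out. Of the miRNA entries, 0 were called in each direction, and 0 to 1 higher and 0 to 2 lower when 1 sample was left out. The endothelial median of -0.27 ran from -0.40 to -0.16 when 1 library was left out and from -0.35 to -0.17 otherwise, and the mural median of -0.27 from -0.39 to -0.20 and from -0.40 to -0.185. The 14 vessel copies lower at an unadjusted p under 0.05 became 5 without wild-type replicate 1, 3 without replicate 2 and 20 without replicate 3. They became 22 without yellow mutant replicate 1, 8 without replicate 2, 4 without replicate 3 and 6 with the depth covariate. The share of all genes at that p was not computed for these runs, so the counts have no background. Genes named from the further lists, such as ANGPT1 and vegfab, were not followed through these runs. Of 37 named vessel copies, 7 changed sign with that covariate, and the cause was not tested. With it flt4 (gene 110515335) was at 0.18, tek at 0.0895, tie1 (gene 110523031) at 0.012 and egfl7 at 0.0064. Likewise aplnra (gene 110525566) was at 0.13, Notch3 at 0.17 and pdgfrb (gene 110534178) at 0.038. Leaving out 1 library gave both signs for flt4 (-0.20 to 0.13), tie1 (-0.27 to 0.0101), fli1 (gene 110516190, -0.39 to 0.0453) and Notch3 (-0.34 to 0.0871). The same held for miR-126-x (-0.31 to 0.0758), miR-126-y (-0.10 to 0.10), miR-143-x (-0.38 to 0.19), miR-143-y (-0.16 to 0.17), miR-144-y (-0.45 to 0.46) and miR-451-x (-0.94 to 0.0290). With median-of-ratios scaling miR-144-y was at -0.0457. The vessel entries also moved down under that scaling, as did the striated muscle entries and miR-451-x. It put miR-126-y at -0.145, miR-126-x at -0.22, miR-143-y at -0.145 and miR-143-x at -0.27. For miR-145-x it gave -0.39 and for miR-145-y -0.47. The differences near 0 of miR-126-y and miR-143-y thus hold for RPM as deposited. The count test planned for the miRNA table was not run, since whole reads could not be recovered from every column.

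With a replicate block the count of higher calls over all genes was 0, and 16 vessel copies were lower at an unadjusted p under 0.05. For that run too, the share of all genes at that p was not computed. Same-numbered RNA-Seq libraries had correlations of their deviations of 0.115, -0.213 and 0.158, and miRNA samples of 0.0883, -0.121 and -0.0585, so the numbers were not taken to pair the samples. Absolute depth is unknown, which limits what can be said of copies near the filter.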
